A study of Mus musculus with 18 samples.

Results

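10 immediate early and activity-regulated genes were followed through 3 RNA preparations of mouse brain. They were Fos, Fosb, Junb, Egr1, Egr2, Egr4, Arc, Nr4a1, Npas4 and Bdnf, and every probe set that the array annotation assigns to one of these 10 genes was taken. This gave 12 probe sets of 45037, with a pair each for Egr2 and Bdnf and 1 for each of the other genes. Of the 12, 11 had a mean over the 18 arrays above the filter of 5.95 log2 units, and these 11 entered the tests with the other probe sets that passed, 27022 in all. The excluded one was that of Npas4.

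The study compared 3 mice carrying the TgCPEB4∆4 transgene with 3 control mice, all 6 weeks old. Cortex and striatum of each mouse were combined, and 3 preparations were put on single-colour Affymetrix arrays: total RNA, RNA that left poly(U)-agarose at 25% formamide (the short-tail fraction, enriched for short poly(A) tails) and RNA that left it at 90% formamide (the long-tail fraction). The labels do not give the promoter that drives the transgene or say whether the control mice were littermates. All values are log2 expression. They give the share of a transcript within the RNA put on the array, because equal amounts were labelled, so fewer cells of a type and less RNA per cell cannot be told apart. The labels number the mice as replicates. Each p-value of the main fits rests on the spread between these mice, pooled over both genotypes.

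Immediate early genes are transcribed within minutes of synaptic activity, without the need for newly made protein. Calcium entering through NMDA receptors and L-type channels activates kinases, which act on CREB bound to cyclic AMP response elements (CRE) and on serum response factor bound to CArG boxes in the promoters of these genes. Fos, Fosb and Junb encode subunits of the AP-1 transcription factor, Egr1, Egr2 and Egr4 zinc-finger transcription factors, Nr4a1 an orphan nuclear receptor and Npas4 a neuron-specific transcription factor of the bHLH-PAS family. Arc and Bdnf act at the synapse: Arc protein promotes the removal of AMPA receptors from the membrane, and Bdnf is the secreted ligand of the receptor TrkB. CPEB4 is an RNA-binding protein that acts on the poly(A) tails of the mRNAs it binds.

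Promoter sequences from RefSeq (GRCm38.p6) were read for 8 of the 10 genes, over the 250 bases before the transcription start, on both strands. They are shown because the genes below fall into those that were low together in 1 mouse and those that were not, and the elements named above lie in sequences of this kind. 4 of the low genes and Fos, which was not low, are printed 5′ to 3′ on the gene's strand, with capitals marking the matches to the CRE core TGACG (or its reverse complement), the full CRE TGACGTCA, the CArG box and TATAAA. Where a core is part of a full CRE, both would be counted. For Egr2 (5 starts in the table) and Bdnf (7 starts) the start with the most matches was taken, a choice that favours matches.
Fos, chr12:85473640-85473889, plus strand: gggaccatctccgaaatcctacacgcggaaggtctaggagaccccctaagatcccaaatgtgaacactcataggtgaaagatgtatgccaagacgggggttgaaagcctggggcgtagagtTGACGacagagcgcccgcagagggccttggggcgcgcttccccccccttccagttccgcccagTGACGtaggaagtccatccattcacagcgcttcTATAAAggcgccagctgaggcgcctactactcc
Fosb, chr7:19310046-19310295, minus strand: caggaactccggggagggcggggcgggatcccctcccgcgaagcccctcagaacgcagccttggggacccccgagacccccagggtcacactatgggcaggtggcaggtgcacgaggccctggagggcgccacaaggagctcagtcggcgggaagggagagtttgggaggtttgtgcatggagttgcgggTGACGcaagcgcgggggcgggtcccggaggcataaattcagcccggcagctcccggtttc
Nr4a1, chr15:101266596-101266845, plus strand: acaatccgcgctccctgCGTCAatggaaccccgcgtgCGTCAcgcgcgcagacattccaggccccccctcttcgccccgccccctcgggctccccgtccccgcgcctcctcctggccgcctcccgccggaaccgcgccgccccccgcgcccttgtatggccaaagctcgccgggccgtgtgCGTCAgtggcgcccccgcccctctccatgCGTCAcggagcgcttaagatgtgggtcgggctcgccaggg
Egr2, chr10:67537619-67537868, plus strand: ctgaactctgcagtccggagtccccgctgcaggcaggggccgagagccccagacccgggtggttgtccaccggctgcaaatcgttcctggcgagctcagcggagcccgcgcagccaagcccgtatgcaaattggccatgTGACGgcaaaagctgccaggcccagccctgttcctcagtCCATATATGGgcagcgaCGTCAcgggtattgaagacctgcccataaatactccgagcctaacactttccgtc
Bdnf, chr2:109692186-109692435, plus strand: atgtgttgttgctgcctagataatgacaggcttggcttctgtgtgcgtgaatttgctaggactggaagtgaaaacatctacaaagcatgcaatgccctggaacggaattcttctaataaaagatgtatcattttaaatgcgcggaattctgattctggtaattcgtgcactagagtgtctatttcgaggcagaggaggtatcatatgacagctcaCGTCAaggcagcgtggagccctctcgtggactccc

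The core was present in 8 of the 8 members' promoters, with 4 copies in Nr4a1, 2 each in Fos, Egr2, Egr4 and Npas4, and 1 each in Fosb, Junb and Bdnf. Among 32851 promoter windows of the same length in the table, 17.8% held it. The full CRE as spelled was found in 0 of the 8 and in 1.55% of all windows. The CArG box matched in Egr2 alone of the 8, against 1.47% of all windows, and TATAAA in Fos alone, against 12.4%. The core was shared by Fos, which was not low in the mouse described below, and by Fosb, Nr4a1, Egr2 and Bdnf, which were. Egr1 and Arc, which were low in that mouse too, were not read, so the counts say nothing about their promoters. A match describes letters in the window and shows no binding.

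Detection set limits on which members could be followed. A probe set was counted as above background where it exceeded the highest of 23 nonspecific control probe sets on the same array, which lay between 7.07 and 7.52 in total RNA, between 5.43 and 6.03 in the short-tail fraction and between 5.53 and 7.30 in the long-tail fraction. Fos, Fosb, Egr1 and Arc were above it on all 18 arrays. Junb and Egr4 were above it on 0 of 6 total RNA arrays and on 6 of 6 short-tail arrays. Npas4 lay between 4.97 and 5.58 on all arrays and was above background on 1, the short-tail array of control mouse 1.

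The tissue labels were checked with markers. Markers of neurons in general (6 of 6) and of cortical excitatory neurons (3 of 3 that passed the filter) were above background on every total RNA array, as were 3 of 4 striatal markers. The 2 Cpeb4 probe sets differed between genotypes by 0.27 ± 0.23 and 0.01 ± 0.16 in total RNA (SE, limma, adjusted p = 0.64 and 0.99). Whether the transgene carries the sequence that they read is not given, so they do not check the genotype labels. Transgenic mouse 1 stood apart from the other 5 mice in inflammatory genes. Lcn2, which encodes the acute-phase protein lipocalin-2, read 10.78 in total RNA of that mouse, 5.29 and 5.30 in the other transgenic mice and 5.31, 5.20 and 5.48 in control mice, and was above background in transgenic mouse 1 alone. The choice of this mouse and of Lcn2 and Gfap was made with their values known.

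Gene positions below are those of the protein-coding genes in GRCm38.p6. Between genotypes, no member was called in total RNA. The level of 0 of 11 probe sets differed at an adjusted p under 0.05, beside 0 of all 27022 tested (0%). An unadjusted p under 0.05 was reached by 2935 of the 27022. The median estimate over the 11 was -0.50, beside 0.02 over all probe sets, and 8 of the 11 estimates were negative. Without transgenic mouse 1 the median was -0.04 and 6 of 11 were negative, with 0.65 the lowest adjusted p.

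Fos, the founding AP-1 subunit (chr12:85473890-85477274), read 8.43, 8.33 and 8.33 in total RNA of transgenic mice 1 to 3, against 8.71, 8.33 and 7.73 in control mice. The transgenic mice lay within the range of the control mice. The difference was 0.10 ± 0.22 (SE, adjusted p = 0.86), with a 95% interval of -0.39 to 0.60.

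Fosb, whose protein pairs with Jun proteins (chr7:19302696-19310118), read 7.76, 8.89 and 9.20 in transgenic mice, against 9.22, 9.51 and 8.90 in control mice. Transgenic mouse 1 lay 1.13 below the next lowest mouse, and the other transgenic mice lay at or within the control range. The difference was -0.59 ± 0.33 (SE, adjusted p = 0.52) and -0.17 ± 0.18 without transgenic mouse 1 (adjusted p = 0.85).

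Junb, an AP-1 subunit that pairs with Fos proteins (chr8:84976909-84978748), read 6.19, 6.03 and 6.59 in transgenic mice and 6.29, 6.09 and 6.24 in control mice. The groups overlapped, and all 6 values lay below the background control, so no direction can be read from them.

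Egr1, a zinc-finger factor used as a marker of active neurons (chr18:34861207-34864956), read 10.30, 11.24 and 11.34 in transgenic mice, against 11.60, 11.49 and 11.28 in control mice. Only transgenic mouse 1 lay clearly apart, 0.94 below the next lowest mouse. The difference was -0.50 ± 0.25 (SE, adjusted p = 0.49), and -0.17 ± 0.13 without that mouse (adjusted p = 0.78).

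Egr2, a related zinc-finger factor (chr10:67534469-67542188), has the probe sets 1427682_PM_a_at (higher signal) and 1427683_PM_at. The first read 6.28, 7.01 and 7.11 in transgenic mice, against 8.17, 7.40 and 6.99 in control mice. Control mouse 1 was the highest and transgenic mouse 1 the lowest, and transgenic mice 2 and 3 overlapped with control mouse 3. Each of the 2 probe sets was above background in 0 of 3 transgenic and 2 of 3 control mice. No fold is given for either, because control mouse 3 was not above background, and the fitted differences rest in part on background values. The fitted differences were -0.72 ± 0.31 and -0.52 ± 0.20 for the 2 probe sets (SE, adjusted p = 0.46 and 0.43).

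Egr4, the third zinc-finger member (chr6:85511121-85513589), stayed between 6.46 and 6.82 in transgenic mice and between 6.50 and 6.64 in control mice, all below the background control in total RNA. Npas4 (chr19:4984353-5003439) stayed between 5.15 and 5.41 in transgenic mice and between 5.20 and 5.29 in control mice, also below it.

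Nr4a1, the nuclear receptor (chr15:101253902-101274795), read 6.46, 7.21 and 7.62 in transgenic mice, against 7.61, 7.42 and 7.32 in control mice. Transgenic mouse 3 was level with the highest control mouse, whereas transgenic mouse 1 lay 0.75 below the next lowest mouse. The difference was -0.36 ± 0.26 (SE, adjusted p = 0.59), and -0.04 ± 0.15 without transgenic mouse 1 (adjusted p = 0.96). Above background were 1 of 3 transgenic and 2 of 3 control mice.

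Arc (chr15:74669081-74672570) had the widest spread of the members in transgenic mice. It read 7.79, 9.46 and 9.89 in transgenic mice, against 9.88, 9.65 and 9.34 in control mice. Transgenic mouse 1 lay 1.54 below the next lowest mouse, and the other transgenic mice lay at or within the control range. The difference was -0.57 ± 0.46 (SE, adjusted p = 0.63) and turned to 0.05 ± 0.18 without that mouse (adjusted p = 0.96).

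Bdnf, the neurotrophin (chr2:109674700-109727043), has the probe sets 1422169_PM_a_at (higher signal) and 1422168_PM_a_at. The first read 6.51, 7.33 and 7.42 in transgenic mice, against 7.64, 7.78 and 7.57 in control mice. This was the 1 member probe set of 11 whose genotypes did not overlap in total RNA, with all 3 transgenic mice lower, beside 7.3% of all probe sets. It was above background in 1 of 3 transgenic mice (mouse 3) and 3 of 3 control mice, so the lower values of transgenic mice 1 and 2 lie at background. The difference was -0.58 ± 0.22 (SE, adjusted p = 0.43), with a 95% interval of -1.08 to -0.07, and -0.29 ± 0.11 without transgenic mouse 1 (adjusted p = 0.65). The second read 5.99, 6.84 and 6.98 in transgenic mice, against 6.72, 6.65 and 6.81 in control mice, all below the background control. The probe sets disagreed on transgenic mice 2 and 3, which were lower than every control mouse on the first and higher than every control mouse on the second.

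**Figure D1:**
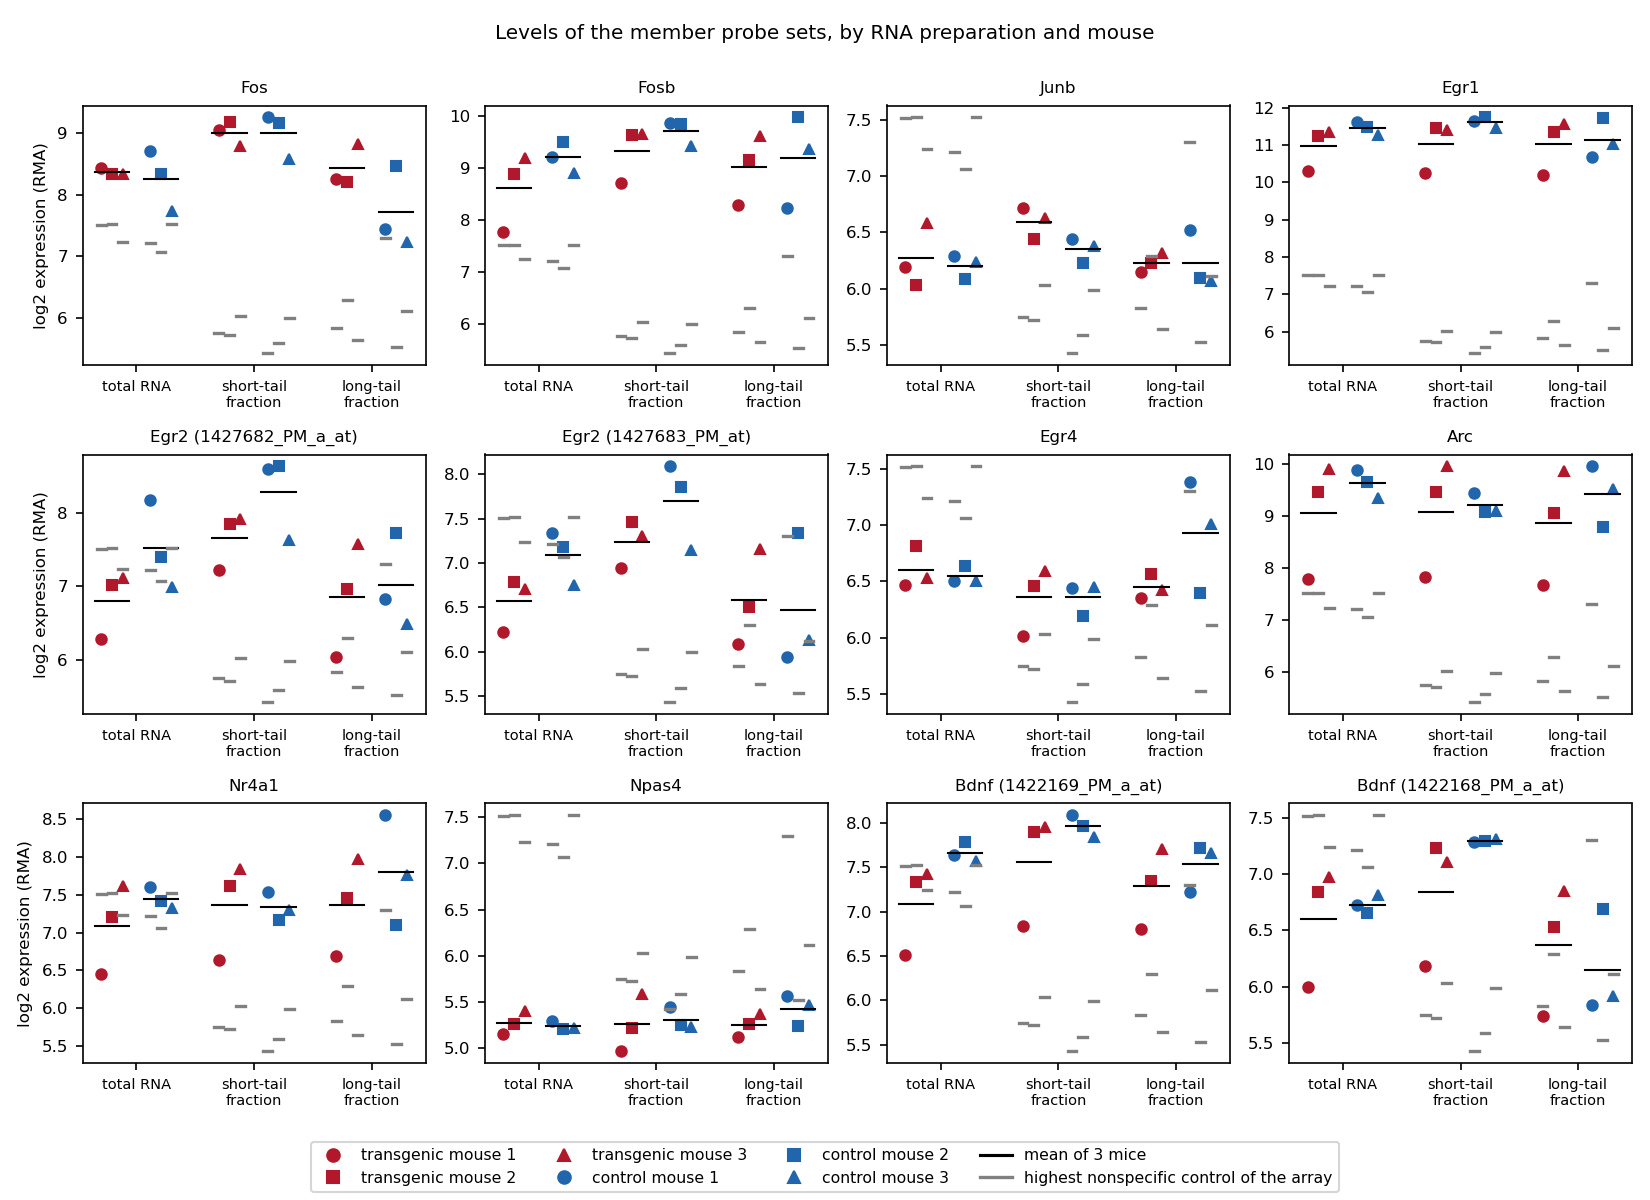
Log2 expression (vertical axis, a scale of its own per panel) of the 12 member probe sets in total RNA and in the fractions with short and with long tails, transgenic mice (red) left of control mice (blue), with the mean of 3 mice as a black line and the highest nonspecific control of each array as a grey line. Arc read 7.79 in total RNA of transgenic mouse 1 and 9.34 or more in the other 5 mice, while the 6 Junb values in total RNA lay below the grey lines.

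**Figure D2:**
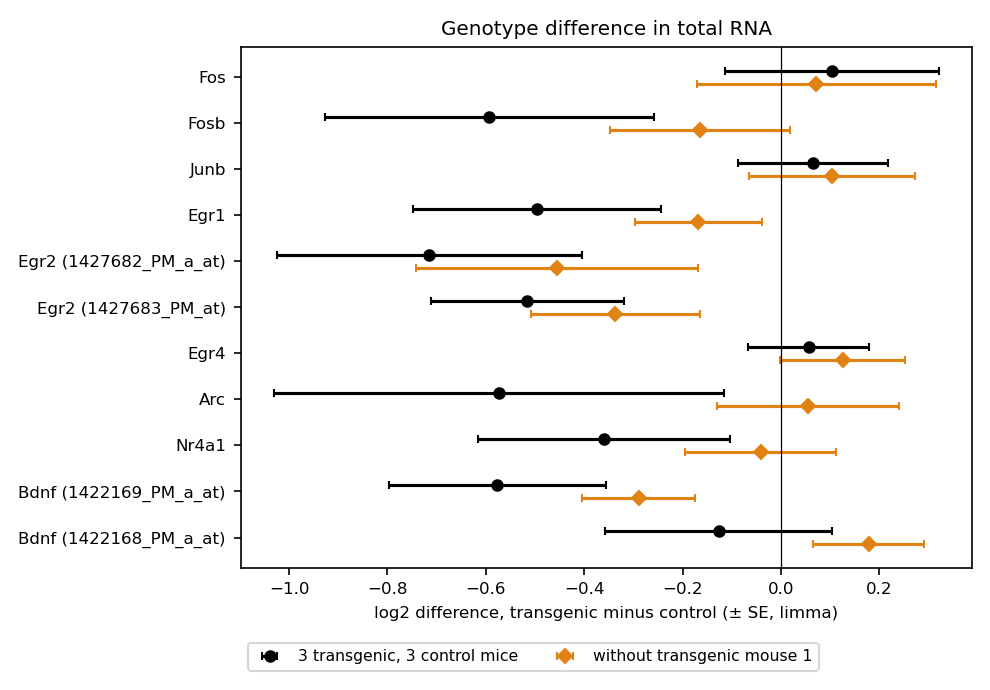
Estimated log2 difference in total RNA, transgenic minus control, with its SE from limma (horizontal axis), for the 11 member probe sets tested, with all 6 mice (black circles) and without transgenic mouse 1 (orange diamonds). The estimate for Arc was -0.57 with all mice and 0.05 without transgenic mouse 1, and that for the first Egr2 probe set -0.72 and -0.46.

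The members that were low in transgenic mouse 1 were low in all 3 preparations of that mouse. This mouse was the lowest of 6 for 9 of 11 probe sets in total RNA, beside 27.1% of all probe sets. The same count was 9 of 11 in the short-tail fraction (29% of all) and 7 of 11 in the long-tail fraction (12.5% of all). It lay over 0.5 log2 units below the median of the other 5 mice for 8, 8 and 7 of the 11 in total RNA, the short-tail and then the long-tail fraction, beside 4.67%, 4.65% and 4.35% of all probe sets. The 3 preparations share the tissue of the mouse, and the counts carry no test.

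Arc lay farthest down. Its difference from the median of the other 5 mice was -1.86 in total RNA, -1.61 in the short-tail fraction and -1.84 in the long-tail fraction, ranks 4, 10 and 2 from the lowest of 27022 probe sets. In the short-tail fraction Arc read 7.82, 9.45 and 9.95 in transgenic mice, against 9.43, 9.07 and 9.10 in control mice. In the long-tail fraction it read 7.66, 9.06 and 9.85 in transgenic mice, against 9.94, 8.78 and 9.51 in control mice. Transgenic mouse 1 was the lowest in both. Transgenic mice 2 and 3 lay above the control mice in the short-tail fraction and within their range in the long-tail fraction.

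Fosb followed at -1.43, -0.93 and -1.08 in total RNA, the short-tail and the long-tail fraction. Egr1 lay at -1.04, -1.20 and -1.15, and Nr4a1 at -0.97, -0.91 and -1.08. For the first Bdnf probe set the differences were -1.06, -1.12 and -0.85, and for the first Egr2 probe set -0.83, -0.69 and -0.92. In total RNA of that mouse Nr4a1, Bdnf and Egr2 were not above background, so their total RNA differences are against background values, while Arc, Fosb and Egr1 were above it in all 3 preparations.

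Fos did not share this. Its differences in transgenic mouse 1 were 0.09, -0.11 and 0.06, and it read 9.05, 9.18 and 8.78 in the short-tail fraction of transgenic mice, against 9.25, 9.16 and 8.57 in control mice. Junb lay at -0.05, 0.27 and -0.08, with total RNA below background. Egr4 lay at -0.06, -0.43 and -0.22.

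**Figure D3:**
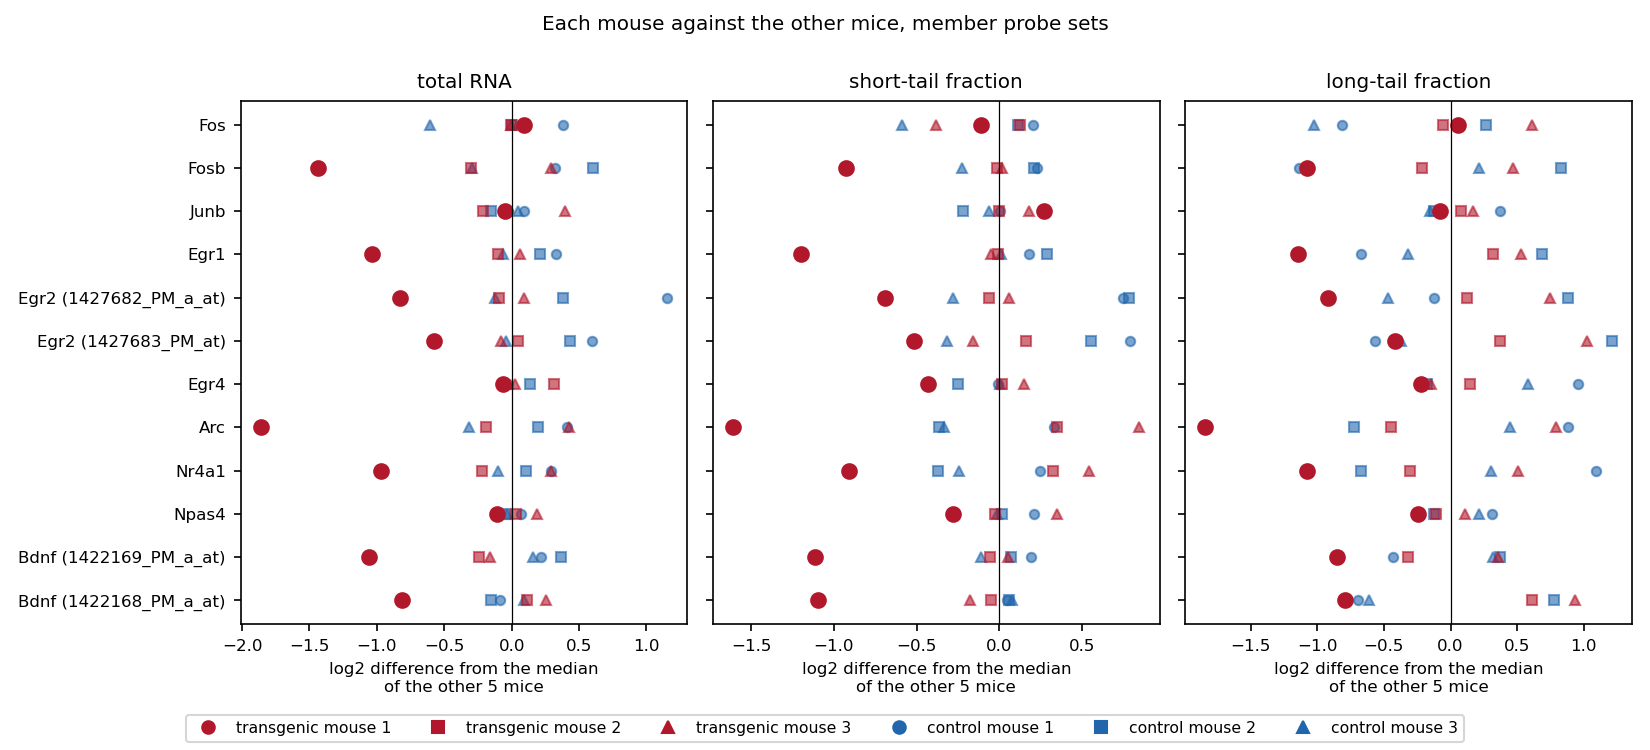
Difference in log2 expression of each mouse from the median of the other 5 mice (horizontal axis) for the 12 member probe sets in total RNA and in the fractions with short and with long tails, transgenic mice in red and control mice in blue, with transgenic mouse 1 as the large red circle. That mouse lay at -1.86, -1.61 and -1.84 for Arc and at 0.09, -0.11 and 0.06 for Fos.

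In the long-tail fraction other mice moved too. Transgenic mouse 3 lay over 0.5 above the median of the other 5 for 7 of 11 member probe sets (15.1% of all), and control mouse 2 for 5 of 11 (1.99% of all). For Egr1 the long-tail values were 10.20, 11.34 and 11.56 in transgenic mice, against 10.67, 11.72 and 11.03 in control mice. For Fosb they were 8.28, 9.15 and 9.62 in transgenic mice, against 8.23, 9.98 and 9.36 in control mice, and control mouse 1 was as low as transgenic mouse 1.

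Across the 6 total RNA arrays, 6 of the members varied together, while Fos did not and Junb and Egr4 were not above background. The Pearson correlation of a member with the mean of the other members was 0.98 for Egr1, 0.96 for Nr4a1, 0.96 for Arc, 0.94 for Fosb, 0.90 for Bdnf and 0.84 for Egr2. It was 0.20 for Egr4, 0.17 for Junb and 0.08 for Fos. The values of Egr4 and Junb come from background signal, so no lack of shared variation is read from them. Each value rests on 6 arrays and is set largely by transgenic mouse 1, and no p is given. The mean of the centred members was -0.69, -0.01 and 0.18 in transgenic mice and 0.36, 0.21 and -0.06 in control mice.

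Of 1274 genes with an SD of at least 0.3 over the 6 total RNA arrays, the 5 most correlated with that mean were Grm8 (0.9945), Stac2 (0.9895), Syndig1 (0.9869), Mpp3 (0.9856) and Kcna2 (0.9841). Grm8, which encodes a metabotropic glutamate receptor, read 5.52, 6.65 and 6.99 in transgenic mice, against 7.18, 6.86 and 6.53 in control mice. Kcna2, a voltage-gated potassium channel, read 9.87, 10.48 and 10.63 in transgenic mice, against 10.72, 10.67 and 10.54 in control mice. Transgenic mouse 1 was the lowest for both, but Grm8 was above background on 0 of the 6 arrays and Kcna2 on all 6.

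The same mouse was then read in other genes of the activity response. Late activity-regulated genes follow the immediate early wave and include neuropeptides and synaptic proteins. Transgenic mouse 1 was the lowest for 13 of 19 of them in total RNA, beside 27.1% of all probe sets. The list mean was 8.45, 8.95 and 9.06 in transgenic mice and 9.02, 9.08 and 8.98 in control mice. Rgs4, a regulator of G-protein signalling, read 10.33, 11.29 and 11.34 in transgenic mice, against 11.60, 11.65 and 11.68 in control mice. All transgenic mice were lower, beside 7.3% of all probe sets. Its difference was -0.66 ± 0.24 (SE, adjusted p = 0.43), and -0.33 without transgenic mouse 1 (adjusted p = 0.62). The genes named from a list were picked by smallest p, so groups that do not overlap are no separate result. Gpr3 and Nefm had estimates of -0.44 and -0.36 (adjusted p = 0.44 and 0.47), and of -0.26 and -0.18 without that mouse (adjusted p = 0.69 and 0.76), with Gpr3 above background in 0 of 3 transgenic and 1 of 3 control mice.

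Of the other immediate early transcription factors, that mouse was the highest for 11 of 22 and the lowest for 5, beside 26.9% and 27.1% of all probe sets. Jun, the partner of Fos in AP-1, read 9.23, 8.71 and 8.90 in transgenic mice, against 8.67, 8.42 and 8.43 in control mice. All transgenic mice were higher, beside 11.1% of all probe sets. The difference was 0.44 ± 0.15 (SE, adjusted p = 0.43), and 0.30 without transgenic mouse 1 (adjusted p = 0.65). Of the other immediate early effectors it was the highest for 11 of 26 and the lowest for 8. Apold1, an immediate early gene of endothelial cells, read 7.67, 7.17 and 7.15 in transgenic mice, against 6.94, 6.58 and 6.68 in control mice, with only transgenic mouse 1 above background. Homer1, a postsynaptic scaffold with an activity-induced short form, read 9.75, 10.31 and 10.53 in transgenic mice, against 10.79, 10.87 and 10.68 in control mice. All transgenic mice were lower for Homer1, beside 7.3% of all probe sets. The difference was -0.59 ± 0.19 (SE, adjusted p = 0.42), and -0.36 without transgenic mouse 1 (adjusted p = 0.62).

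Of these lists 0 genes were called between genotypes in total RNA (22 other transcription factors, 26 other effectors, 19 late genes), beside 0 of 11974 genes. The list medians were 0.13, 0.07 and -0.16, beside 0.03 over all genes, and 0.046, 0.0026 and -0.0078 without transgenic mouse 1. For 25 genes of signalling from synapse to nucleus, 12 partners and corepressors of the members and 12 genes of the Bdnf receptor and its processing, 0 were called as well, with medians of -0.04, 0.06 and 0.05.

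Markers of cell types and inflammation also stood apart in transgenic mouse 1. Those of neurons were low, as the members were, and the other lists given here were high on average. Over all probe sets in total RNA, this mouse was the highest for 26.9% and the lowest for 27.1%. The mean of 6 inflammation and acute-phase genes in total RNA was 10.16, 7.46 and 6.58 in transgenic mice and between 6.45 and 6.59 in control mice, with 6 of 6 genes highest in transgenic mouse 1. The mean of 5 astrocyte markers was 10.73, 10.14 and 9.61 in transgenic mice and between 9.47 and 9.54 in control mice, with 5 of 5 highest in that mouse. Gfap, an intermediate filament of astrocytes, read 12.75, 12.17 and 10.51 in transgenic mice, against 10.58, 10.51 and 10.47 in control mice. Microglial markers averaged 9.31, 8.76 and 8.51 in transgenic mice and between 8.45 and 8.52 in control mice, with 5 of 6 highest in that mouse. The mean of 2 choroid plexus and ependyma markers was 9.80, 7.82 and 9.12 in transgenic mice and between 8.03 and 8.74 in control mice, with 2 of 2 highest in that mouse in all 3 preparations. General neuronal markers averaged 11.33, 11.56 and 11.48 in transgenic mice and between 11.56 and 11.62 in control mice, with 6 of 6 lowest in transgenic mouse 1. Neuronal markers were 0.23 below the median of the other mice, while the members' mean was 0.87 below it. Transgenic mouse 2, with inflammation and astrocyte means of 7.46 and 10.14, had a members' mean of 8.04, within the control range of 7.99 to 8.40. Of the 6 inflammation genes, 2 were above background on all 6 total RNA arrays and 0 on none. The part of these genes in the low members was not tested.

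**Figure D4:**
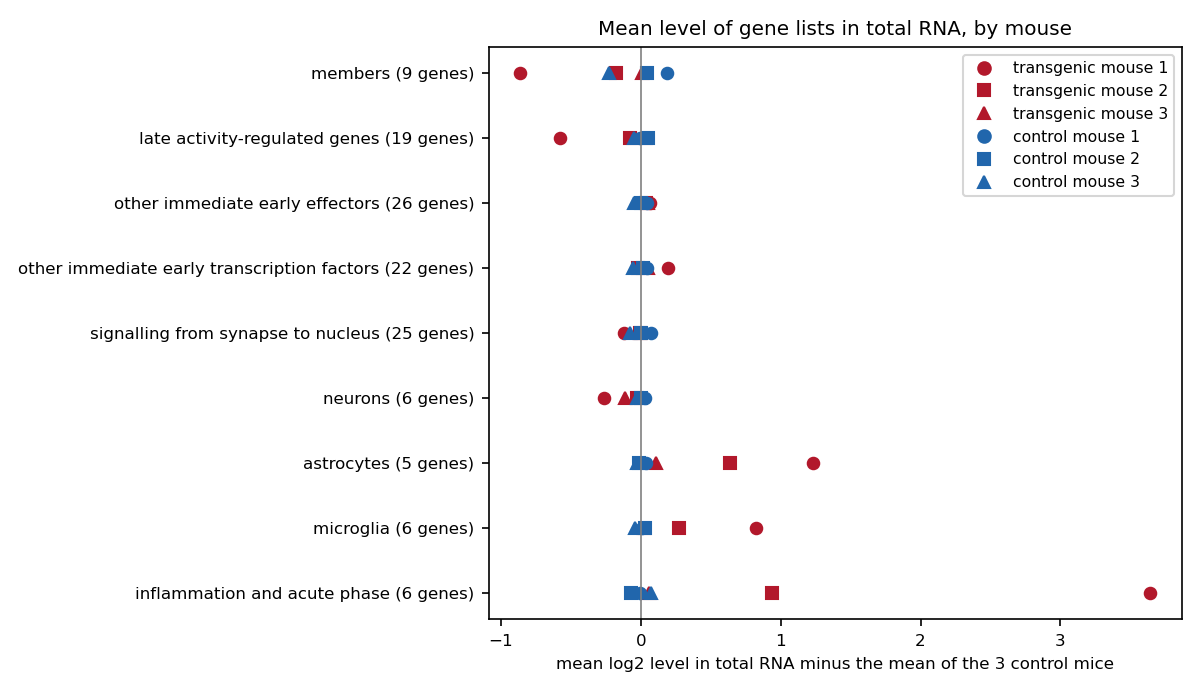
Mean log2 level of 9 gene lists in total RNA of each mouse, minus the mean of the 3 control mice (horizontal axis), transgenic mice in red and control mice in blue. Transgenic mouse 1 was the lowest for the members (mean 7.36, against 8.40, 8.26 and 7.99 in control mice) and the highest for the inflammation list (10.16), and transgenic mouse 2 was at 7.46 for the inflammation list with a members' mean of 8.04.

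In the short-tail fraction 0 of 11 member probe sets were called between genotypes, beside 0 of 27022 (0%; 4466 with an unadjusted p under 0.05). Egr1 read 10.26, 11.45 and 11.41 in transgenic mice, against 11.63, 11.74 and 11.46 in control mice, and the second Bdnf probe set 6.19, 7.23 and 7.11, against 7.28, 7.29 and 7.31. All 3 transgenic mice were lower for these 2 of 11, beside 10.5% of all probe sets, though for both the gap to the nearest control mouse was small. Egr2, Egr1 and the second Bdnf probe set had estimates of -0.63, -0.57 and -0.45 (adjusted p = 0.31, 0.35 and 0.38), and of -0.41, -0.18 and -0.13 without transgenic mouse 1 (adjusted p = 0.43, 0.43 and 0.54). Junb went the other way, reading 6.71, 6.44 and 6.62 in transgenic mice, against 6.45, 6.23 and 6.38 in control mice. Its difference was 0.24 ± 0.11 (SE, adjusted p = 0.31), and 0.18 without transgenic mouse 1 (adjusted p = 0.43). Of the 11 estimates, 8 were negative and 3 positive. Without transgenic mouse 1, Arc and Nr4a1 lay at 0.50 and 0.40 (adjusted p = 0.19 for both), against -0.13 and 0.03 with it.

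In the long-tail fraction 0 of 11 were called, beside 0 of 27022 (0%; 4454 with an unadjusted p under 0.05), and 0 of 11 had genotypes that did not overlap. The largest estimate was that of Fos, which read 8.26, 8.20 and 8.81 in transgenic mice, against 7.44, 8.47 and 7.24 in control mice. Control mouse 2 lay among the transgenic mice and the other control mice lay below them. The difference was 0.71 ± 0.34 (SE, adjusted p = 0.32), and it passed only without control mouse 2, at 1.09. Egr4 read 6.35, 6.57 and 6.42 in transgenic mice, against 7.38, 6.39 and 7.01 in control mice, a difference of -0.48 ± 0.26 (adjusted p = 0.35).

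The tail ratio, which subtracts a mouse's short-tail from its long-tail log2 value, places a transcript toward long tails when positive and toward short tails when negative. It is relative within an array pair, and the median gene lay at -0.17 in transgenic and -0.18 in control mice. Quantile-normalizing the arrays again moved that median by 0.17 and 0.21, and centring each array on its median moved it by -0.09 and -0.12. In transgenic mice 1 of 11 member probe sets was called, toward short tails, beside 19.1% of all probe sets in that direction, 12.7% in the other and 31.8% in either. In control mice 5 of 11 were called toward short tails and 1 toward long tails, beside 35.4%, 27.6% and, in either direction, 63% of all. All 3 transgenic mice lay below 0 for 7 of 11 (45.3% of all probe sets) and above it for 0 (29.8%), and all 3 control mice lay below 0 for 6 of 11 (42.7%) and above it for 1 (36.2%). With 11 probe sets, these counts are not read as a result about the members.

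Egr2 lay toward short tails in both genotypes. Its first probe set had tail ratios of -1.18, -0.89 and -0.33 in transgenic mice and -1.76, -0.91 and -1.14 in control mice. All 6 values were negative and the groups overlapped. In the long-tail fraction both probe sets were above background in 3 of 3 transgenic and 2 of 3 control mice, and the exception, control mouse 1, had the lowest ratio on both. The mean was -0.80 ± 0.21 in transgenic mice (SE, adjusted p = 0.024) and -1.27 ± 0.21 in control mice (adjusted p = 0.0016). The call in transgenic mice ended without transgenic mouse 1 (adjusted p = 0.18) or 2 (adjusted p = 0.16) and with quantile normalization (adjusted p = 0.068). It also ended where the fractions of a mouse were left unpaired (adjusted p = 0.16). The second probe set averaged -0.66 ± 0.29 in transgenic mice (adjusted p = 0.11) and -1.23 ± 0.29 in control mice (adjusted p = 0.0075).

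Fos read -0.79, -0.97 and 0.03 in transgenic mice and -1.81, -0.69 and -1.34 in control mice. The groups overlapped through control mouse 2. The mean was -0.58 ± 0.25 in transgenic mice (adjusted p = 0.1) and -1.28 ± 0.25 in control mice (adjusted p = 0.0031). The genotype difference, 0.70 ± 0.35, was not called (adjusted p = 0.39).

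The second Bdnf probe set read -0.45, -0.70 and -0.26 in transgenic mice and -1.45, -0.60 and -1.40 in control mice. Its means were -0.47 ± 0.19 in transgenic mice (adjusted p = 0.084) and -1.15 ± 0.19 in control mice (adjusted p = 0.0015), and the difference of 0.68 ± 0.26 was not called (adjusted p = 0.37). It was above background on 2 of 3 transgenic and 1 of 3 control long-tail arrays. The first Bdnf probe set read -0.03, -0.55 and -0.25 in transgenic mice and -0.86, -0.25 and -0.18 in control mice, with means of -0.28 ± 0.17 and -0.43 ± 0.17 (adjusted p = 0.24 and 0.056), and its long-tail value in control mouse 1 was not above background.

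Egr1 read -0.06, -0.11 and 0.15 in transgenic mice and -0.95, -0.02 and -0.43 in control mice. Its mean in control mice, -0.47 ± 0.18, passed narrowly (adjusted p = 0.046) and did not pass without control mouse 1 (-0.23, adjusted p = 0.24), without control mouse 3 (adjusted p = 0.12) or without any 1 transgenic mouse (adjusted p = 0.065 to 0.076). It also lost the call with quantile normalization (-0.24, adjusted p = 0.21). In transgenic mice its mean was 0.00 ± 0.18 (adjusted p = 0.99).

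Egr4 was the 1 member called toward long tails, in control mice only. Its tail ratios were 0.33, 0.11 and -0.17 in transgenic mice and 0.94, 0.20 and 0.56 in control mice, with means of 0.09 ± 0.17 (adjusted p = 0.69) and 0.56 ± 0.17 (adjusted p = 0.019). The call in control mice ended without control mouse 1 (adjusted p = 0.079) or 3 (adjusted p = 0.072) and in a fit of control mice alone (adjusted p = 0.059).

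Arc, Nr4a1, Fosb and Junb were not called in either genotype. Arc read -0.16, -0.39 and -0.09 in transgenic mice and 0.51, -0.29 and 0.41 in control mice. Nr4a1 averaged 0.01 ± 0.20 in transgenic mice and 0.47 ± 0.20 in control mice (adjusted p = 0.98 and 0.064). With quantile normalization Arc and Nr4a1 passed toward long tails in control mice, at 0.61 and 0.67 (adjusted p = 0.026 and 0.048). Leaving out control mouse 2 gave 0.46 for Arc and 0.74 for Nr4a1, which passed too (adjusted p = 0.03 and 0.0083). Fosb averaged -0.32 ± 0.31 in transgenic mice and -0.52 ± 0.31 in control mice, and in control mice mouse 1 lay at -1.64 beside 0.14 and -0.06 in the other control mice. Junb averaged -0.36 ± 0.13 in transgenic mice and -0.12 ± 0.13 in control mice (adjusted p = 0.071 and 0.44), and was above background on 2 of 3 transgenic and 1 of 3 control long-tail arrays.

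The genotype difference in tail ratio was called for 0 of 11 member probe sets, beside 0 of 27022 (0%; 3621 with an unadjusted p under 0.05), and the tail ratios of the genotypes overlapped for 11 of 11. Over all probe sets, 8.57% had all transgenic mice lower and 9.66% all higher. Control mouse 1 had the widest spread of tail ratios. The SD of the tail ratio over all tested probe sets was 0.61, 0.62 and 0.39 in transgenic mice and 1.19, 0.59 and 0.86 in control mice. Control mouse 1 lay at an end of the 6 mice for 11 of 11 member probe sets. The share over all probe sets was not counted, so this is not read as a result about the members. That mouse was the lowest for Fos, Fosb, Egr1, Egr2 and Bdnf and the highest for Junb, Egr4, Arc and Nr4a1. For Junb its value, 0.07, was also the one nearest 0. The long-tail array of control mouse 1 had the highest nonspecific control of the 6, 7.30, with 35.54% of probe sets above it. On the other long-tail arrays 54.42% to 69.35% were above theirs. Fos and Egr4 read 7.44 and 7.38 on the long-tail array of control mouse 1, near its control. The part of this array and of the spread in the members' tail ratios was not tested.

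**Figure D5:**
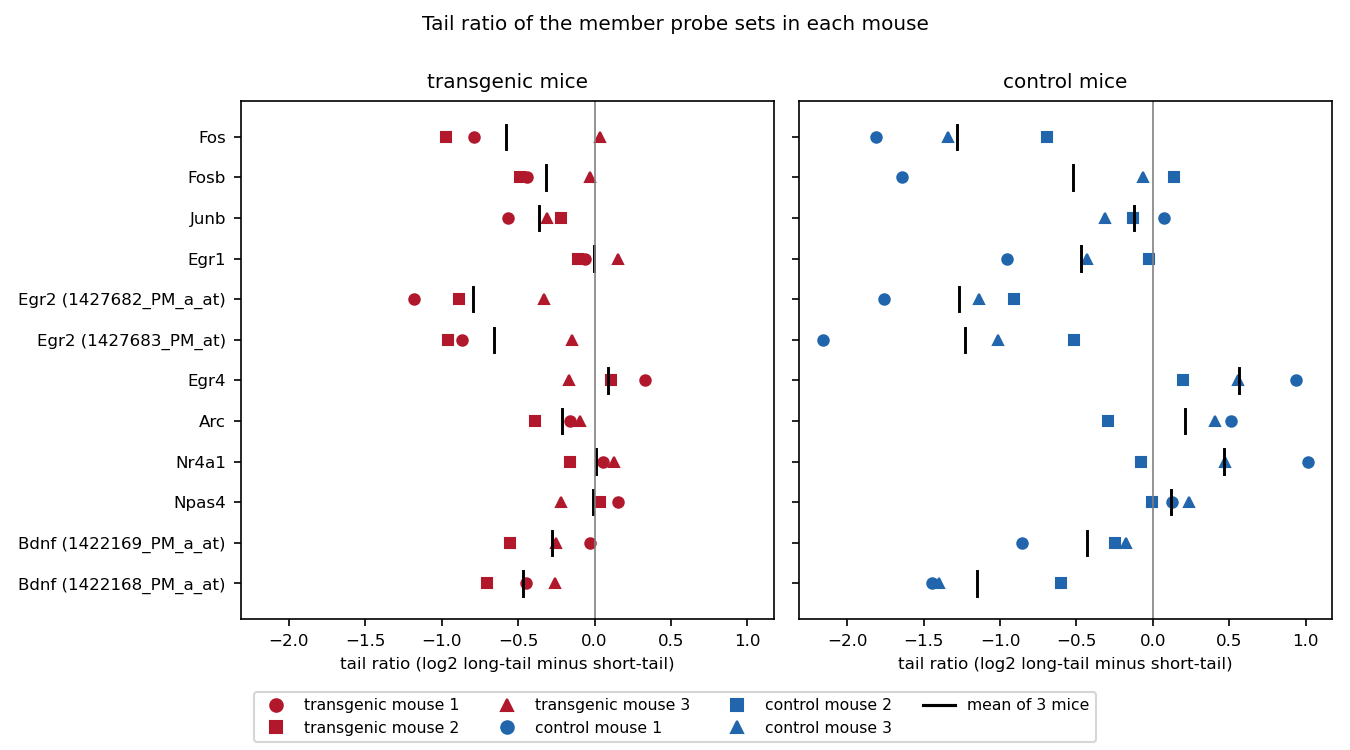
Tail ratio (log2 difference between the fractions of a mouse, long-tail less short-tail, horizontal axis) of the 12 member probe sets in each transgenic mouse (left, red) and control mouse (right, blue), with the mean of 3 mice as a black line. Fos averaged -0.58 in transgenic and -1.28 in control mice, and the values of the 2 genotypes overlapped.

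Tail ratios of related genes were counted by list. Of 26 other immediate early effectors, 0 were called toward long and 9 toward short tails in transgenic mice, and 1 and 14 in control mice. The background over genes was 6.5% and 20.5% in transgenic mice (27% in either direction) and 20.5% and 39.9% in control mice (60.4%). Plk2, an activity-induced kinase of the synapse, had -1.62 ± 0.19 in control mice (adjusted p = 0.00059). The exception in control mice was Homer1, at 0.41 ± 0.16 (adjusted p = 0.049).

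Of 22 other immediate early transcription factors, 1 was called toward long and 1 toward short tails in transgenic mice, and 2 and 6 in control mice. Nr4a3, a paralog of Nr4a1, had 1.06 ± 0.17 (adjusted p = 0.0016) and Egr3, a paralog of the Egr members, 0.57 ± 0.21 (adjusted p = 0.041) in control mice. The call of Egr3 ended in 4 of the 6 fits that left out 1 mouse, and that of Homer1 in 5 of 6. Klf10, a zinc-finger factor, had -2.29 ± 0.57 (adjusted p = 0.0088), and its ratio lay between -3.06 and -1.21 on leaving out 1 mouse, nearest 0 without control mouse 1. Of 19 late genes, 1 was called toward long and 5 toward short tails in transgenic mice, and 2 and 9 in control mice. The neuropeptide genes Crh and Tac1 had -1.77 ± 0.24 and -1.44 ± 0.25 in transgenic mice (adjusted p = 0.0044 and 0.0066) and -2.57 ± 0.24 and -2.57 ± 0.25 in control mice (adjusted p = 0.00045 for both). Inhba, an activin subunit, lay toward long tails at 0.49 ± 0.15 in transgenic mice (adjusted p = 0.038) and 1.05 ± 0.15 in control mice (adjusted p = 0.00097).

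Of 25 genes of the signalling that induces the members, 4 were called toward long and 1 toward short tails in transgenic mice, and 11 and 7 in control mice. The NMDA receptor subunit Grin2b had 0.68 ± 0.14 in transgenic mice (adjusted p = 0.012), and Grin2a, another subunit, 1.23 ± 0.21 in control mice (adjusted p = 0.0019). Of the genes of the Bdnf receptor and its processing, 1 of 12 was called toward long and 0 toward short tails in transgenic mice, and 3 and 2 in control mice. The one in transgenic mice was Plcg1, which relays signals from TrkB, with 0.97 ± 0.26 in transgenic mice and 1.53 ± 0.26 in control mice (adjusted p = 0.024 and 0.0017). Of the partners and corepressors, 2 of 12 were called toward long and 1 toward short tails in transgenic mice, and 4 and 2 in control mice. The calls named here in transgenic mice ended when transgenic mouse 1 or 2 was left out, as did 8601 of 8601 calls over all probe sets.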

How the data were processed

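Per the labels' protocols, RNA from cortex and striatum of each mouse was split on poly(U)-agarose at 25% and 90% formamide, 5 ng were amplified over 21 cycles and 8 µg of cDNA were labelled. The deposited log2 expression values came from RMA, a tool the submitters' processing notes name without a version. The series text and the probe-set names give different array designs, and the names were used. Of 45141 probe sets, 104 controls were left out. Of the others, 28898 had 1 gene, 551 several and 15588 none in the platform annotation.

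Probe sets with a mean over 18 arrays above the 40th percentile (5.95) were tested with limma 3.58.1 in R 4.3.3 (lmFit, eBayes, two-sided), Benjamini-Hochberg adjusted over all 27022 (11974 genes by their highest probe set for gene lists), threshold 0.05. Intervals are 95%. The tail ratio subtracts short-tail from long-tail values of the same mouse, as the labels pair them. Deviations from the genotype mean in these 2 fractions of a mouse correlated at 0.72, 0.33 and 0.43 in transgenic mice. In control mice they correlated at -0.066, 0.16 and -0.025, so the fractions shared little variation there. Transgenic and control mice of the same number correlated at 0.09, -0.042 and 0.26 in total RNA. In the tail ratio the correlations were 0.36, -0.31 and 0.27. With 3 mice per genotype these values cannot exclude a shared batch, and the main fits took the numbers as names only. The number of arrays limits the precision. All member probe sets are named, and of each list up to 3 genes per direction with the smallest p. The members and lists were chosen with earlier results of these data known. Scripts were tested on simulated data. Alternatives covered the filter, normalization, limma's trend, pairing, the spread of tail ratios, probe sets per gene and leaving out each mouse.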

Additional observations from a re-analysis of the deposited data

How the results depend on the processing

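Between genotypes 0 member probe sets passed in total RNA under every alternative run, and 0 with the replicate number as a block (replicate block) in any of the 4 genotype comparisons. The exceptions elsewhere came without control mouse 2, where 1 member passed in the long-tail fraction (Fos) and 1 for the genotype difference in tail ratio (the second Bdnf probe set), ranges of 0 to 1. Over all probe sets the short-tail count of 0 became 5 with the 60th percentile filter, 2 with quantile normalization and 2 with median centring, and 0 to 359 on leaving out 1 mouse (359 without transgenic mouse 3), and 1 gene passed with the mean of its probe sets. On leaving out 1 mouse the long-tail count spanned 0 to 2319 and that of the tail-ratio difference 0 to 2487, both highest without control mouse 2. The 8601 calls for the tail ratio of transgenic mice became 4612 with the 60th percentile filter, 4974 with quantile normalization, 16523 with tail ratios rescaled to the same SD, 14521 with transgenic mice alone and 0 to 13560 on leaving out 1 mouse (0 without transgenic mouse 1 or 2, 13560 without control mouse 1). The 1 member called there became 0 with quantile normalization, 2 with centring, 6 with rescaling and 5 with transgenic mice alone. It became 0 with the fractions of a mouse left unpaired (no replicate block) and 0 to 5 on leaving out 1 mouse. The 6 members called in control mice became 2 with the 60th percentile filter, which tests fewer probe sets, and 4 to 9 on leaving out 1 mouse. Signs also turned with quantile normalization for Fos (-0.075), Nr4a1 (-0.025) and Egr4 (0.0033) in the short-tail fraction and for Egr1 (0.15), Egr4 (-0.0016) and Arc (0.016) in the tail ratio of transgenic mice. They turned with centring for Egr4 (0.0048, short-tail fraction) and Nr4a1 (-0.083, tail ratio of transgenic mice), and with rescaling for Egr1 (0.030, tail ratio of transgenic mice), Fosb (-0.082) and the first Bdnf probe set (-0.053, both genotype differences in tail ratio). Leaving out 1 mouse turned the sign of estimates in total RNA, with ranges of Fos -0.16 to 0.33, Junb -0.094 to 0.18, Egr4 -0.051 to 0.13, Arc -0.99 to 0.054, Bdnf (second probe set) -0.31 to 0.18. The ranges in the short-tail fraction were Fos -0.21 to 0.13, Egr4 -0.12 to 0.16, Arc -0.57 to 0.50, Nr4a1 -0.21 to 0.40. The ranges in the long-tail fraction were Fosb -0.65 to 0.22, Junb -0.079 to 0.15, Egr1 -0.37 to 0.31, Egr2 (first probe set) -0.52 to 0.25, Egr2 (second probe set) -0.18 to 0.55, Arc -1.05 to 0.047, Bdnf (second probe set) -0.012 to 0.54. The ranges for the tail ratio of transgenic mice were Egr1 -0.082 to 0.046, Egr4 -0.030 to 0.22, Nr4a1 -0.053 to 0.091. The ranges for the tail ratio of control mice were Fosb -0.85 to 0.037. The ranges for the genotype difference in tail ratio were Fosb -0.35 to 0.53, Bdnf (first probe set) -0.062 to 0.29. The causes were not tested. Of the other values of single genes, 745 kept direction and side of the threshold under the alternatives that kept all mice, 43 lost and 16 gained a call. In total RNA signal over background limits Junb, Egr4, Npas4 and the second Bdnf probe set in both genotypes, and Egr2 (both probe sets), Nr4a1 and the first Bdnf probe set in part of the mice.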
